A study of Saccharomyces cerevisiae with 4 samples.

Results

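The 7 genes of trehalose synthesis and breakdown in budding yeast, taken by their systematic names, were followed across all 4 libraries of a table of 7126 features. They are TPS1 (YBR126C), TPS2 (YDR074W), TPS3 (YMR261C) and TSL1 (YML100W), which encode the subunits of the trehalose synthase complex, and NTH1 (YDR001C), NTH2 (YBR001C) and ATH1 (YPR026W), which encode trehalases. All 7 had a value above 0 in every library and all 7 passed the filter on low values, an average of 1 FPKM or more over the 4 libraries. FPKM is the number of fragments scaled by feature length and by the fragments of the library, so levels of different genes can be set side by side. Ribosome-depleted total RNA was sequenced from 2 libraries of a MATa strain in which DBP2, the gene of a DEAD-box RNA helicase, is replaced by the KanMx marker (dbp2null; strain BTY115, with ura3Δ0, leu2Δ0, his3Δ0, TRP1, met- and lysΔ in its label) and from 2 libraries of a MATa wild-type strain (his3Δ1, leu2Δ0, met15Δ0 and ura3Δ0). All were grown in YPD, a rich glucose medium, at 30 °C to an OD600 of about 0.4, and the library steps were adapted to keep short RNAs. By their labels both strains lack URA3 and LEU2 function, and both carry a his3 deletion and a methionine marker. The his3 alleles differ, and only the dbp2null label gives lysΔ and TRP1. The loss of DBP2 and the strain background therefore cannot be told apart. The design text speaks of a biological replicate without saying how the cultures were kept apart, and p-values measure only the spread between these libraries.

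Trehalose is a disaccharide of glucose that yeast cells store during stress and starvation and break down when growth resumes. Tps1 joins glucose 6-phosphate and UDP-glucose to trehalose 6-phosphate, Tps2 removes the phosphate, and Tps3 and Tsl1 are large regulatory subunits of the same complex. Nth1 is the main cytosolic neutral trehalase, Nth2 is its paralog, and Ath1 is the acid trehalase that acts on trehalose outside the cytosol. Trehalose 6-phosphate also restrains hexokinase, and cells without Tps1 cannot grow on glucose. Many of these genes are textbook targets of the stress transcription factors Msn2 and Msn4, which bind the stress response element, AGGGG on either strand.

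The members lie on 4 chromosomes of the R64 assembly, the release that matches the sacCer3 build named by the submitters, and each has 1 coding exon. TPS1 lies on chromosome II at 488905 to 490392 on the minus strand, and NTH2 on chromosome II at 238941 to 241283, also minus. TPS2 is on chromosome IV at 593893 to 596583 on the plus strand, and NTH1 on chromosome IV at 450220 to 452475 on the minus strand. TSL1 is on chromosome XIII at 70624 to 73920 on the plus strand and TPS3 on the same chromosome at 790205 to 793369 on the minus strand, while ATH1 is on chromosome XVI at 615379 to 619014, plus. Their coding lengths ran from 1488 bases (TPS1) to 3636 bases (ATH1). No stretch of 50 bases in any of the 7 coding sequences occurred elsewhere in the genome, so reads of that length or more belong to 1 gene. The paralogs NTH1 and NTH2 had 72.4% identical bases over 2245 aligned positions. The same alignment gave 72.1% over 1473 positions for TPS1 and ATH1, so this share alone does not set the paralogs apart. The longest identical run of NTH1 and NTH2 is shown because shorter reads within it could not be assigned to either gene. It covers chrIV:451472-451504 (minus strand) in NTH1 and chrII:240193-240225 (minus strand) in NTH2 and has 33 bases.
NTH1 and NTH2: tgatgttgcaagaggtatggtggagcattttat
For the paralogs TPS3 and TSL1 the share of identical bases was 67.2% over 3080 aligned positions, and the longest identical run was 15 bases.

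The 300 bases that end 100 bases short of the start codon are printed for TPS1, TSL1 and NTH2, because TPS1 and TSL1 hold the most stress response elements there among the 7 genes and NTH2 holds 0, while the log2 fold change was near 0 for TPS1 and above 1 for TSL1 and NTH2. The gap before the start codon was left because the annotation gives no transcript starts. Matches to AGGGG on either strand are in capitals, all sequences are given 5′ to 3′ in the direction of the gene, and all are from the RefSeq R64 genome. The TPS1 window is chrII:490493-490792 (minus strand), the TSL1 window chrXIII:70224-70523 (plus strand) and the NTH2 window chrII:241384-241683 (minus strand).
TPS1: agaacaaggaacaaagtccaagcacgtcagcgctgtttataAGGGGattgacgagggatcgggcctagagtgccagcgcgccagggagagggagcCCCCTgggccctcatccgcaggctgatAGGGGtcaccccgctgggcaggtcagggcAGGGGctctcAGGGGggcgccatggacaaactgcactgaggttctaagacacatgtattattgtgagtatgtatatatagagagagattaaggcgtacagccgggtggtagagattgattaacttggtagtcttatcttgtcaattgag
TSL1: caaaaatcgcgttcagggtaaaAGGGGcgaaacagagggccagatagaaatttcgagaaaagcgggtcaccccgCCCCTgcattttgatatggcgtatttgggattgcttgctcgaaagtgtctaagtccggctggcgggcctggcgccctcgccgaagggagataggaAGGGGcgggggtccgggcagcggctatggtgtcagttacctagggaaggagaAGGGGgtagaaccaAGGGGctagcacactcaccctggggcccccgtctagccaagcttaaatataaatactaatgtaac
NTH2: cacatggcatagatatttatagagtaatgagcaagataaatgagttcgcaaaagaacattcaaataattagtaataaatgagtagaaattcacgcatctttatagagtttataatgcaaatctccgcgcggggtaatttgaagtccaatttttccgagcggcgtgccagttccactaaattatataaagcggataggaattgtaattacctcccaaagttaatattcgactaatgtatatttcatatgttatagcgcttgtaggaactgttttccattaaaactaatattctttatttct
TPS1 and TSL1 each held 5 matches in this window, NTH1 held 3, TPS3 held 2, TPS2 and ATH1 held 1 each and NTH2 held 0. Of 6007 windows of the same length before nuclear protein-coding genes, 23.6% held at least 1 match, 0.816% at least 3, and 3 windows, 0.05%, at least 5. In a longer window, of 700 bases with the same gap, TPS1 and TSL1 had 6 matches each, TPS2 5, NTH1 3, TPS3 2 and NTH2 and ATH1 1 each, where 44.5% of 6003 windows had at least 1 and 0.416% at least 5. A heat shock element, searched on both strands as the triplets GAA, TTC and GAA with NN between neighbours, was found only before TSL1 among the 7 genes, with its first base 354 bases from the start codon, against 1.1% of the windows of 300 bases, and it overlapped no AGGGG match. The TSL1 window runs into the coding sequence of the small reading frame YML100W-A and the TPS3 window into that of YMR262W. A match says only that the letters are there.

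The genotype check and the libraries come before the values. DBP2 read 2.90 and 1.03 FPKM in dbp2null against 213 and 199 FPKM in wild type. LYS2 was low only in dbp2null (1.63 and 0.679 against 37.8 and 31.7 FPKM), whose label gives lysΔ without naming the gene. MET17, also called MET15, was low only in wild type (0.237 and 0.422 against 31.5 and 22.5 FPKM), whose label gives met15Δ0. The dbp2null label gives met- but does not say which gene is meant. HIS3 read 80.4 and 73.7 FPKM in dbp2null although that label gives a full deletion. In wild type, labelled his3Δ1, it read 60.9 and 78.9 FPKM, so the groups overlapped. The dbp2null libraries stand apart from each other: FPKM summed to 5.01e+07 in dbp2null replicate 1 but to 3.37e+06 in replicate 2, and the wild-type sums were 5.29e+07 and 3.22e+07. Genes silent in growing haploid cells also read higher in dbp2null. The median of 17 meiotic and sporulation genes was 10.6 and 16.3 FPKM in dbp2null versus 4.13 and 3.80 FPKM in wild type. Read depth is unknown, since the table holds no counts. The log2 fold change of each of the 7 genes is therefore also given without dbp2null replicate 2 and with the meiotic median of each library subtracted. Wherever a library is left out, its genotype keeps a single library, which is assumed to vary as the remaining pair does.

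Both dbp2null values lay above both wild-type values for 7 of the 7 genes, but the sizes were very uneven. TSL1, ATH1 and NTH2 stood at more than double the wild-type level, NTH1, TPS2 and TPS3 were higher by 1.33 to 1.42 times, and the TPS1 means stood in a ratio of 1.06. None of the 7 passed the test across all features, limma on log2(FPKM + 1) with Benjamini-Hochberg adjustment at 0.05, and 4 of 7 had an unadjusted p below 0.05, namely TSL1, NTH2, ATH1 and NTH1. Of 6781 tested features 1.19% were called, 0.973% as higher and 0.221% as lower, 66 and 15 features. That split was 3 and 10 after median centring, 1 and 4 after quantile normalization and 51 and 53 after rescaling to the protein-coding sum. An unadjusted p below 0.05 with a higher value was found in 32.5% of all tested features. Among the protein-coding features within the length range of the 7 genes that share was 45.6%. Both dbp2null values exceeded both wild-type values in 49.8% of all tested features, and in 67.9% of the 1958 protein-coding features within the length range of the 7 genes, so the shared direction is common in this table. The median log2 fold change of the 7 genes was 0.49, beside 0.28 for all tested features and 0.54 for the protein-coding features of that length range.

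**Figure D1:**
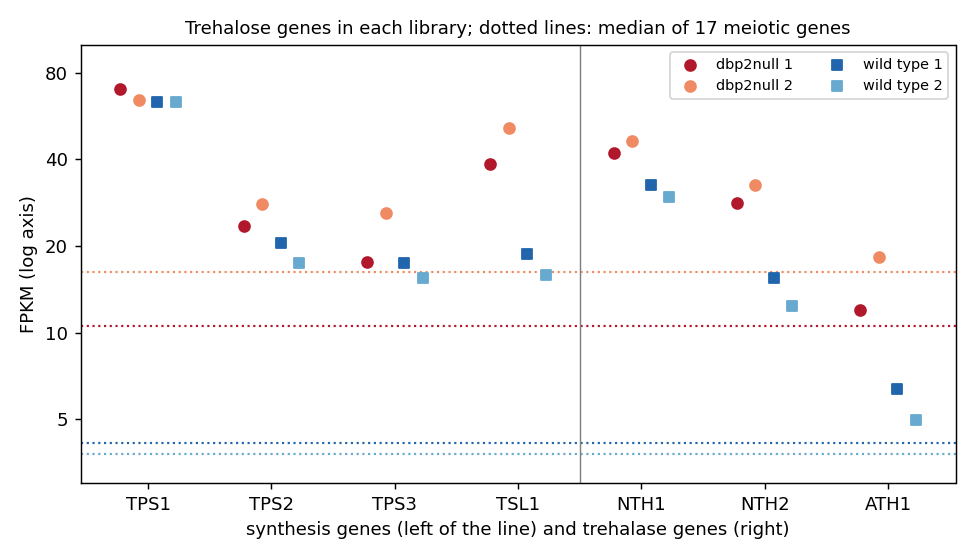
FPKM of each trehalose gene (log axis) in each library, with 1 point per library, circles for dbp2null and squares for wild type; dotted lines give the median FPKM of the 17 meiotic genes in the library of the same colour. The TPS1 points lie between 63.2 and 69.9 FPKM in all libraries, the TSL1 points of dbp2null (38.4 and 51.3 FPKM) stand clear of those of wild type (18.8 and 15.8 FPKM), and the ATH1 points lie close to the dotted lines.

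TPS1, the catalytic synthase gene, was the most abundant of the 7 in every library. It read 69.9 and 64.3 FPKM in dbp2null replicates 1 and 2 and 63.2 and 63.3 FPKM in wild type. The genotypes were separated by about 1 FPKM at their nearest values, and the 2 dbp2null libraries differed more from each other than the nearer of them did from wild type. The log2 fold change was 0.08 (SE 0.22, 95% interval -0.49 to 0.65, limma adjusted p = 0.789). It was 0.14 without dbp2null replicate 2 and turned to -0.15 with the meiotic median subtracted and to -0.25 with median centring. The interval leaves room for a change of up to 0.65 on that scale. Relative to the median of all features, TPS1 lay at -0.20, and 24.9% of the protein-coding features of like length had a lower log2 fold change.

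TPS2, which encodes the trehalose 6-phosphate phosphatase, read 23.4 and 27.9 FPKM in dbp2null versus 20.5 and 17.5 FPKM in wild type. The groups did not overlap, with both dbp2null libraries high, but the gap between them was smaller than the spread within dbp2null. The log2 fold change was 0.41 (SE 0.19, limma adjusted p = 0.188), and 0.29 without dbp2null replicate 2. With the meiotic median subtracted the direction turned (-0.28), as it did with quantile normalization (-0.27).

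The regulatory subunit genes TPS3 and TSL1 parted in dbp2null. TPS3 read 17.6 and 26.1 FPKM in dbp2null versus 17.4 and 15.5 FPKM in wild type, so that only dbp2null replicate 2 was clearly high. Its log2 fold change of 0.36 (SE 0.25, limma adjusted p = 0.3331) came down to 0.09 without that library and turned to -0.53 with the meiotic median subtracted and -0.43 with quantile normalization. TSL1 read 38.4 and 51.3 FPKM in dbp2null versus 18.8 and 15.8 FPKM in wild type. Both dbp2null libraries were above 2 times the higher wild-type library, and the groups did not overlap. The means stood in a ratio of 2.59, and the log2 fold change was 1.32 (SE 0.22, 95% interval 0.73 to 1.90, limma adjusted p = 0.0559), short of the threshold. Without dbp2null replicate 2 it was 1.11 (limma adjusted p = 0.11), and with the meiotic median subtracted it was 1.18 (limma adjusted p = 0.194). TSL1 was called with a pseudocount of 5 (limma adjusted p = 0.048), where 5.6% of features were called as higher, and without dbp2null replicate 1 (log2 fold change 1.52, limma adjusted p = 0.032), where the wild-type pair alone gives the spread between libraries and 15.8% were. In settings added later, with the data known, it was also called among features of at least 300 bases (limma adjusted p = 0.00455), where 31% of features were called as higher. It was called too among features above 0 in every library (limma adjusted p = 0.0266), where 17.1% were. Of the protein-coding features of like length, 86.3% had a lower log2 fold change than TSL1.

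The ratio of 2 FPKM values within a library does not depend on how that library was scaled, and 6 such ratios were compared. Their differences on the log2 scale were taken from log2(FPKM + 1). These differences therefore do depend on the scaling and are not exactly those of the printed ratios. TSL1 stood at 2.18 and 1.97 times TPS3 in dbp2null and at 1.08 and 1.02 times TPS3 in wild type. In wild type the paralogs were thus nearly level, and in dbp2null TSL1 was about double, with no overlap between the groups. The difference on the log2 scale was 0.95, between 0.89 and 1.02 with any 1 library left out, but 1.71 with the meiotic median subtracted. With 2 libraries a group the exact two-sided permutation test cannot go below 0.33, the value of all 6 ratios before and after Benjamini-Hochberg adjustment. TSL1 relative to TPS1 was 0.550 and 0.798 in dbp2null and 0.297 and 0.249 in wild type, a log2 difference of 1.23, and of 1.33 with the meiotic median subtracted. Among the 4 synthase genes TSL1 made up 25.7% and 30.3% of the summed FPKM in dbp2null and 15.7% and 14.1% in wild type, while TPS1 made up 46.8% and 37.9% against 52.7% and 56.5%. The TPS2 share hardly differed, at 15.7% and 16.4% against 17.1% and 15.6%, and the TPS2 to TPS1 ratio, higher in dbp2null by 0.33 on the log2 scale, turned to -0.13 with the meiotic median subtracted.

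**Figure D2:**
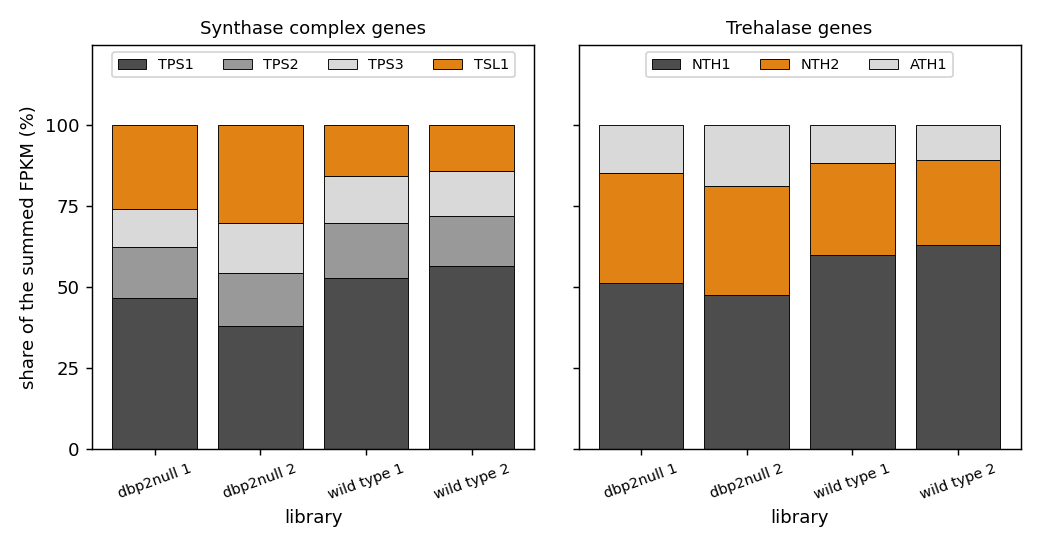
Share of the summed FPKM (percent, bars from 0) taken by each synthase complex gene (left) and each trehalase gene (right) in each of the 4 libraries. The TSL1 segment is 25.7% and 30.3% in dbp2null against 15.7% and 14.1% in wild type, and the NTH1 segment 51.2% and 47.7% against 59.8% and 63.1%.

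NTH1, for the main neutral trehalase, was the most abundant of the trehalase genes in every library. It read 42.0 and 46.3 FPKM in dbp2null versus 32.7 and 29.6 FPKM in wild type. The groups stood apart by about 9 FPKM, more than the spread within either. The log2 fold change was 0.49 (SE 0.18, 95% interval 0.02 to 0.97, limma adjusted p = 0.124), 0.42 without dbp2null replicate 2 and 0.17 with the meiotic median subtracted. It lay close to the middle of the protein-coding features of like length, of which 46.7% had a lower value.

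NTH2, the NTH1 paralog, read 28.2 and 32.6 FPKM in dbp2null versus 15.5 and 12.3 FPKM in wild type. Both dbp2null libraries were high, with no overlap, and the means stood in a ratio of 2.18. The log2 fold change was 1.08 (SE 0.20, 95% interval 0.55 to 1.60, limma adjusted p = 0.0581), 0.97 without dbp2null replicate 2 (limma adjusted p = 0.131) and 0.72 with the meiotic median subtracted (limma adjusted p = 0.274). In the settings added later, NTH2 was called among features of at least 300 bases (limma adjusted p = 0.00885), where 31% of features were called as higher. It was also called among features above 0 in every library (limma adjusted p = 0.0298), where 17.1% were. Of the protein-coding features of like length, 80.1% had a lower log2 fold change than NTH2. The NTH2 to NTH1 ratio was 0.670 and 0.703 in dbp2null and 0.476 and 0.417 in wild type. The log2 difference was 0.58, between 0.50 and 0.67 with any 1 library left out and 0.55 with the meiotic median subtracted.

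ATH1, for the acid trehalase, was the weakest of the 7 in every library, with 11.9 and 18.2 FPKM in dbp2null versus 6.39 and 4.96 FPKM in wild type. The groups did not overlap and the means stood in a ratio of 2.66, the largest of the 7. The log2 fold change was 1.25 (SE 0.33, 95% interval 0.37 to 2.13, limma adjusted p = 0.0763). Its values lay just above the meiotic medians of 10.6 and 16.3 against 4.13 and 3.80 FPKM, and below the highest of the 17 meiotic genes in every library. After subtraction of those medians ATH1 read 1.38 and 1.99 against 2.26 and 1.16 FPKM, with overlapping groups and a log2 fold change of 0.01. It was -0.15 with quantile normalization and 0.96 without dbp2null replicate 2. Without dbp2null replicate 1, where dbp2null is the single replicate 2, it was 1.54. In a setting added later, among features of at least 300 bases, ATH1 was called (limma adjusted p = 0.0289), where 31% of features were called as higher. Of the protein-coding features of like length, 85.0% had a lower log2 fold change than ATH1.

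**Figure D3:**
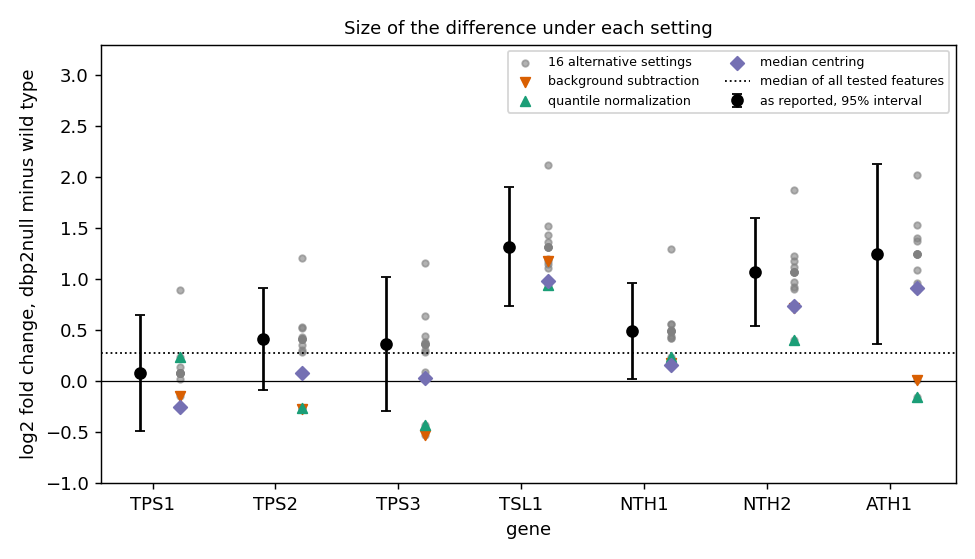
Log2 fold change of each gene (dbp2null minus wild type): black points with the 95% interval are the values as reported, grey points the 16 alternative settings, coloured symbols 3 of them, and the dotted line the median of all tested features. TSL1, NTH1 and NTH2 stay above 0 in every setting (lowest 0.94, 0.16 and 0.40), whereas TPS1, TPS2, TPS3 and ATH1 have points below 0.

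The order of levels within a library moved with genotype. In both wild-type libraries it ran TPS1, NTH1, TPS2, TSL1, TPS3, NTH2, ATH1. Of neighbours in that order, TPS2 and TSL1, TSL1 and TPS3, and TPS3 and NTH2 overlapped across the 2 libraries. In dbp2null NTH2 moved up to the fourth place in both libraries, ahead of TPS2 and TPS3, and TSL1 to the third place in replicate 1 and to the second in replicate 2. There TSL1 and NTH1 overlapped, as did TPS2 and TPS3, and TPS3 and ATH1. Ranked among nuclear protein-coding features, TSL1 lay at the percentiles 50.6 and 67.6 in dbp2null and 32.5 and 31.7 in wild type, and NTH2 at 36.1 and 38.0 against 25.4 and 24.0. By contrast, TPS2 ranked lower in dbp2null (26.5 and 26.7 against 35.8 and 35.2), as did TPS3 (14.0 and 22.4 against 29.3 and 31.0), although their FPKM was higher, and ATH1 had overlapping ranks (4.71 and 7.55 against 7.31 and 8.18). TPS1 ranked at 72.3 and 77.2 against 71.0 and 72.2. Summed FPKM was 149 and 170 in dbp2null and 120 and 112 in wild type for the synthase genes, and 82.1 and 97.1 against 54.6 and 46.9 for the trehalase genes. The trehalase sum was 0.550 and 0.572 of the synthase sum in dbp2null and 0.455 and 0.418 in wild type. These sums were taken without subtracting the meiotic median, which was higher in dbp2null (10.6 and 16.3 against 4.13 and 3.80 FPKM). Part of their difference therefore falls away with that subtraction. After it, TPS2 (12.8 and 11.6 against 16.4 and 13.7 FPKM) and TPS3 (7.04 and 9.82 against 13.3 and 11.7 FPKM) were lower in dbp2null. TSL1 (27.9 and 35.1 against 14.7 and 12.0 FPKM) and NTH2 (17.6 and 16.3 against 11.4 and 8.53 FPKM) stayed higher. So did NTH1 (31.5 and 30.0 against 28.5 and 25.8 FPKM), while TPS1 and ATH1 overlapped between the genotypes.

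The number of stress response elements did not order the genes by their difference. TPS1 and TSL1, with 5 matches each in the printed window, had log2 fold changes of 0.08 and 1.32, and NTH2, with 0 matches there and 1 farther upstream, had 1.08. TPS2, with 5 matches in the longer window, lay at 0.41. These are descriptions of 7 genes and carry no test.

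**Figure D4:**
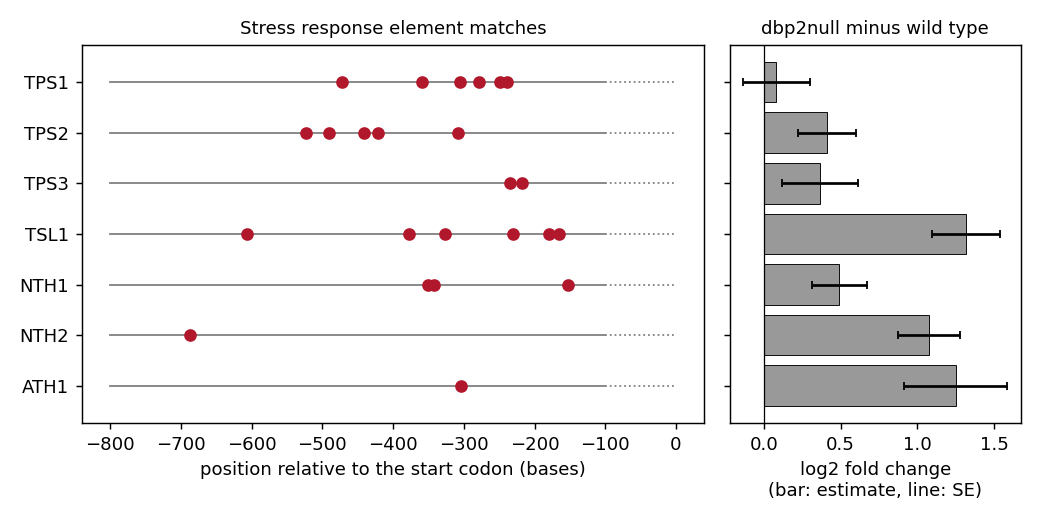
Left, positions of AGGGG matches (dots) from 800 to 100 bases before each start codon, with the part not searched dotted; right, the log2 fold change (bar) and its SE (line). TPS1 and TSL1 carry 6 dots each beside bars of 0.08 and 1.32, and NTH2 carries 1 dot beside a bar of 1.08.

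Neighbouring features were examined because the deposited values do not say whether strand was used in counting. TSL1 converges with ARG81, an arginine metabolism regulator gene whose nearer end lies 477 bases away, and ARG81 read 45.7 and 51.5 against 19.7 and 14.7 FPKM (log2 fold change 1.46 with an SE of 0.21, limma adjusted p = 0.0551). The values of these neighbours were close in every library. On its other side the small reading frame YML100W-A, 312 bases away, read 92.7 and 26.3 against 30.8 and 26.3 FPKM, with overlapping groups. Next to NTH2, ECM15 read 3287 and 1597 against 1240 and 1211 FPKM and RER2 113 and 95.2 against 114 and 109 FPKM, neither with a call (limma adjusted p = 0.437 and 0.797). Beside TPS1, MEO1 (YBR126W-A, 457 bases upstream on the other strand) read 2394 and 307 against 1052 and 1137 FPKM. A feature that shares the TPS1 locus name, YBR126W-B, has no entry in the reference table used here and was listed at 0 throughout dbp2null, while the wild-type libraries gave 527 and 772 FPKM. It was the only one of the neighbouring or like-named features that passed the test (limma adjusted p = 0.0037). Its exact 0 can be a failed estimate, so no fold is given. No other feature of the table with a position overlapped any of the 7 genes.

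Genes that feed UDP-glucose to the synthase went both ways, with 3 of 6 below and 3 above 0. None of them was called, where 1.19% of all tested features were. HXK2, the main hexokinase gene of cells on glucose, read 111 and 97.2 against 506 and 513 FPKM (log2 fold change -2.28 with an SE of 0.36, limma adjusted p = 0.0559). The minor phosphoglucomutase gene PGM1 read 28.1 and 28.9 against 66.9 and 64.6 FPKM, and its paralog PGM2, for the main isozyme, read 21.1 and 27.0 against 10.6 and 11.5 FPKM. The phosphoglucomutase paralogs thus stood on opposite sides of wild type without overlap, although neither was called (limma adjusted p = 0.0559 for PGM1 and 0.0602 for PGM2). Of 6781 tested features, 3375 had both dbp2null values above both wild-type values and 1405 had both below. UGP1, for the enzyme that makes UDP-glucose, read 101 and 69.7 against 135 and 134 FPKM. With the meiotic median subtracted the log2 fold change of PGM1 went from -1.18 to -1.98 and that of PGM2 from 1.05 to 0.53, and that of UGP1 went from -0.67 to -0.41 without dbp2null replicate 2. HXK1 read 56.2 and 65.2 against 23.6 and 16.4 FPKM, and GLK1, for glucokinase, read 68.8 and 64.9 against 47.7 FPKM in wild-type replicate 1 and was listed at 0 in replicate 2.

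Of 8 genes for glycogen and cell wall glucan, which draw on the same UDP-glucose or release glycogen, 8 had a log2 fold change above 0 and 1 was called. Over all tested features 62.3% lay above 0 and 0.973% were called as higher, and over the protein-coding features in the length range of the 7 trehalose genes 78.3% lay above 0. GSY2, the main glycogen synthase gene, rose from 16.3 and 16.6 to 51.1 and 49.8 FPKM (log2 fold change 1.56 with an SE of 0.16, limma adjusted p = 0.0458). The glycogenin gene GLG1 read 18.4 and 27.5 against 7.35 and 6.59 FPKM, and GPH1, glycogen phosphorylase, 24.6 and 21.1 against 8.92 and 6.99 FPKM. FKS1, for a glucan synthase subunit, read 117 and 87.5 against 103 and 96.7 FPKM, with a log2 fold change of 0.02. The median of the 8 was 0.98, beside 0.28 for all features, 0.54 for the protein-coding features in that length range and 1.63 for the 17 meiotic genes. With the meiotic median subtracted the log2 fold change of GLG1 went from 1.56 to 1.38 and that of GPH1 from 1.42 to 0.93.

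Among 8 genes for proteins that act on neutral trehalase or take up trehalose, 7 lay above 0 and 1 was called, beside the same 62.3% above 0 and 0.973% called as higher over all features. DCS2, whose product inhibits the scavenger decapping enzyme Dcs1, rose from 10.4 and 10.04 to 39.6 and 39.1 FPKM (log2 fold change 1.84 with an SE of 0.16, limma adjusted p = 0.0443), and DCS1 itself, not called, read 61.2 and 53.4 against 37.0 and 32.1 FPKM. The protein kinase A subunit genes TPK2, TPK3 and BCY1 had log2 fold changes of 0.42, 0.38 and 0.04. The 14-3-3 gene BMH1, whose product binds phosphorylated Nth1, read 1264 and 893 against 1142 and 984 FPKM, and BMH2 read 249 and 169 against 368 and 323 FPKM. MAL11, also called AGT1, a transporter gene for trehalose and other glucosides, read 29.1 and 63.8 against 6.34 and 4.56 FPKM (log2 fold change 2.79 with an SE of 0.42, limma adjusted p = 0.0559).

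Of 6 regulator genes, 6 lay above 0, where 62.3% of all tested features and 78.3% of the protein-coding ones of like length did. Of the 6, 1 was called, beside 0.973% of all tested features called as higher. MSN4 rose from 13.7 and 11.1 to 46.6 and 44.9 FPKM (log2 fold change 1.81 with an SE of 0.18, limma adjusted p = 0.0458), and MSN2 read 29.9 and 34.5 against 20.5 and 16.3 FPKM (log2 fold change 0.78, limma adjusted p = 0.0719, and 0.37 with the meiotic median subtracted). HSF1, the heat shock factor gene, read 29.0 and 32.0 against 29.6 and 20.9 FPKM, with overlapping groups. Of 9 textbook targets of Msn2 and Msn4, 8 had a log2 fold change above 0, against 62.3% of all tested features. Beside the 0.973% of all features called as higher, 1 of the 9 was called. This was HSP26, for a small heat shock protein (298 and 231 against 46.0 and 36.1 FPKM, log2 fold change 2.66 with an SE of 0.31, limma adjusted p = 0.0481). SOL4 read 42.4 and 28.7 against 8.96 and 7.88 FPKM and the catalase gene CTT1 45.4 and 29.9 against 15.3 and 15.2 FPKM. HSP104, for the disaggregase often paired with trehalose in heat tolerance, read 67.6 and 102 against 86.7 and 71.6 FPKM, and GPD1, for glycerol synthesis, read 51.1 and 42.4 against 66.6 and 69.0 FPKM. The short gene HSP12 read 13617 and 2757 against 980 and 958 FPKM, far apart between the dbp2null libraries. The calls of GSY2, DCS2, MSN4 and HSP26 all ended without dbp2null replicate 2 (limma adjusted p = 0.0928, 0.0917, 0.0966 and 0.0706) at nearly the same sizes (1.58, 1.85, 1.84 and 2.84). They also ended with median centring (limma adjusted p = 0.074, 0.0674, 0.0674 and 0.0677) and with the meiotic median subtracted (limma adjusted p = 0.15, 0.126, 0.136 and 0.134, log2 fold changes of 1.49, 1.88, 1.82 and 2.72). Without wild-type replicate 1 their log2 fold changes were 1.55, 1.87, 1.95 and 2.83, and without replicate 2 they were 1.58, 1.82, 1.67 and 2.49. No feature was called as higher in either of these settings, so the end of the calls there says nothing about these 4 genes. Counting those 2 settings, the calls of GSY2, DCS2 and MSN4 ended in 11 of 16 alternatives each and that of HSP26 in 10.

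**Figure D5:**
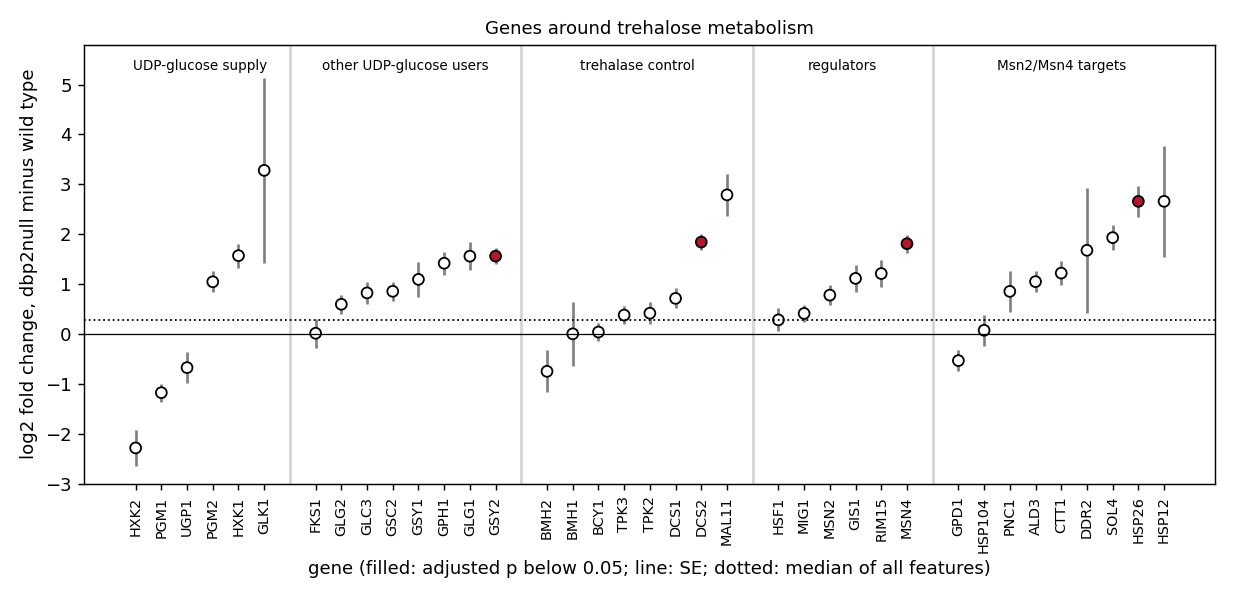
Log2 fold change (dbp2null minus wild type) of the genes around trehalose metabolism, in 5 groups, each sorted by value; lines are SEs, filled points have an adjusted p below 0.05 and the dotted line is the median of all tested features. GSY2, DCS2, MSN4 and HSP26 are the filled points, the UDP-glucose supply group runs from HXK2 (-2.28) upward, and the GLK1 point (3.28, SE 1.85) rests on a value listed at 0 in wild-type replicate 2.

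The features closest in pattern were sought among 5122 named features averaging 10 FPKM or more, by the Euclidean distance between centred log2(FPKM + 1) values over the 4 libraries. For TSL1 they were RPM2, ATG32 and NTG2, at distances of 0.051, 0.065 and 0.077. RPM2 read 14.5 and 20.2 against 6.66 and 5.52 FPKM, so TSL1 shared its course but ran at a higher level. For NTH2 they were MID2, ECM10 and CHS6 (0.044, 0.053 and 0.068), and for NTH1 PSR1, SLM1 and RGD1 (0.018, 0.023 and 0.040). TPS1 was closest to CBP3, PRM4 and BIM1 (0.034, 0.035 and 0.036), TPS2 to UFO1, VPS16 and AGC1 (0.028, 0.030 and 0.038), and TPS3 to BCH2, SWI6 and NUP42 (0.050, 0.051 and 0.056). The features closest to ATH1 were NTE1, ROM1 and RIM15 (0.021, 0.026 and 0.049), the last a kinase gene of the list of regulators. No trehalose gene was among the 3 closest features of another, but 3 places among 5122 candidates are too few to tell whether the 7 genes move together.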

How the data were processed

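FPKM values were deposited by the authors in 1 table with a column for each of the 4 libraries. Per the submitters' processing notes, CASAVA, TopHat, Cufflinks, edgeR and sacCer3 were named without role, order or version, and whether strand was used in counting is not given in the sources used here. After 3 blank rows were left out, 7126 features remained. Low values were searched for whole-read steps: at the best of 400 steps, 13.2% to 15.6% of 500 values in each library were within 0.05 of a whole multiple, so no counts could be recovered and no counting interval is given. Features averaging 1 FPKM or more were fitted as log2(FPKM + 1), which understates changes of weak genes, with limma 3.58.1 in R 4.3.3 (trend, no covariate, two-sided), and the fit was tested on simulated data. Sequences and positions came from the RefSeq R64 genome, read with Biopython 1.88. Members and gene lists were chosen with earlier results of these data known. The text names all 7 members, genes of the fixed lists (called ones and extremes first), adjacent or like-named features and, per member, the 3 closest patterns. A further gene was left out of the lists and is not reported here. Alternatives covered the pseudocount, filter, scaling, background subtraction, trend, replicate block, each library left out and the threshold. Settings limited to features of at least 300 bases or above 0 in every library, and a crossed block, were added after the data were seen.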

Additional observations from a re-analysis of the deposited data

How the results depend on the processing

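With 2 libraries a group and no counts, each test rests on the spread pooled across features, and depth is unknown. Across 16 alternatives TSL1, NTH1 and NTH2 kept a positive log2 fold change. Direction turned for TPS1 with median centring (-0.25) and background subtraction (-0.15), for TPS2 and TPS3 with quantile normalization (-0.27 and -0.43) and background subtraction (-0.28 and -0.53), for ATH1 with quantile normalization (-0.15) and for UGP1 with protein-coding rescaling (0.14). The cause of these turns was not tested. Of the 7 genes, 0 were called as reported, 1 with a pseudocount of 5, 3 at an adjusted p below 0.1, 3 among features of at least 300 bases, 2 among features above 0 in every library and between 0 and 2 with a library left out. The median log2 fold change of the 7 was 0.49 as reported, 0.16 with median centring, 0.24 with quantile normalization, 1.30 with protein-coding rescaling, which moves the median of all features to 1.08, and 0.00736 with background subtraction. The log2 ratio differences moved for TSL1 to TPS3 (0.85 with a pseudocount of 5, 1.71 with background subtraction), NTH2 to NTH1 (0.46 with a pseudocount of 5) and ATH1 to NTH1 (0.45 with a pseudocount of 5), and turned with background subtraction for TPS2 to TPS1 (-0.13) and ATH1 to NTH1 (-0.17). Of all features, 81 were called as reported, 8 with a pseudocount of 0.1, 425 with a pseudocount of 5, 13 among those averaging 10 FPKM or more, 13 with median centring, 5 with quantile normalization, 8 with background subtraction, 41 with no trend, 2106 among features of at least 300 bases, 1198 among features above 0 in every library, 2102 at an adjusted p below 0.1, and between 0 and 2512 with a library left out (0 without wild-type replicate 1 and 6 without replicate 2, where limma gave 1423 and 854 at an unadjusted p below 0.05). With the replicate number as a block 16 features and 0 of the 7 genes were called. The deviations of same-numbered libraries correlated at -0.11 across 6781 features, and the crossed pairing, tried after that was seen, called 2667 features and 3 of the 7 genes.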
